A study of Sus scrofa with 9 samples.

Results

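The 9 genes described here are PAX7, PAX3, the 4 genes of the MYOD family (MYOD1, MYF5, MYF6 and MYOG) and 3 genes of the MEF2 family (MEF2A, MEF2C and MEF2D). They were chosen by PAX7, which had been seen to be low in Obese-MSCs and higher with vitamin-C, and the other 8 were added for their known roles in muscle. All 9 were found by symbol among the 18933 genes of one table and the 18992 genes of the other. What was measured is 5-hydroxymethylcytosine (5hmC) over the exons of each gene, so the values describe a DNA mark and not expression.

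PAX3 and PAX7 are paired-box transcription factors of muscle precursors, and PAX7 marks the satellite cells from which adult muscle regenerates. They act above the MYOD family, basic helix-loop-helix (bHLH) factors that commit a cell to the muscle lineage and drive its differentiation, and MEF2 factors bind beside the MYOD family on muscle genes but also serve in many other tissues. 5hmC is made from 5-methylcytosine by TET enzymes, for which vitamin-C is a cofactor, and adipose mesenchymal stem/stromal cells (MSCs) are mesodermal cells that are not committed to muscle.

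MSCs were grown from the subcutaneous abdominal fat of female domestic pigs, aged 3 months when the diets began. Lean-MSCs came from pigs on standard chow and Obese-MSCs from pigs on a high-fat/high-fructose diet for 16 weeks. From the third passage, Obese-MSCs were grown for another passage with added vitamin-C, 50 µg/mL for 48 h, as the third group. Those grown without added vitamin-C were its untreated controls, which are also the Obese-MSCs set against Lean-MSCs. The paper states that the growth medium itself held a form of vitamin-C (ascorbic acid phosphate). It allows that the treatment effect may be underestimated for this reason. There were 3 libraries per group, which keep the submitters' numbers here (Obese 1 to 3, vitamin-C 4 to 6, Lean 7 to 9), and the labels do not say whether a treated and an untreated library came from the same animal, so they were tested as unpaired.

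Each value is a normalized count, the number of antibody-captured reads over a gene's exons after the authors' scaling. The values of a library summed to 494566 to 522269 in the table that compares the diets, and to 547242 to 593846 in the table that compares treatment. Low values lay around steps of 0.778 to 1.30 normalized counts, clearly in some libraries and weakly in others. In the diet table, 100% of the low values of Lean library 8 lay within 0.1 step of a multiple, against 34.8% in Obese library 1. A gene at 5 normalized counts thus rested on few reads, and a group mean of 3 or less was treated as low here. The study's criteria were applied here to the deposited values, and a gene met them where its ratio of group means was at least 1.4 or at most 0.7 with an unadjusted two-sided p of 0.05 or less (equal variances). The MSC label could not be checked by expression. Over the exons of the MSC surface genes NT5E, THY1 and ENG the 6 libraries of the diet table held 12.4 to 67.4 normalized counts. Of the blood cell genes, CD34 held 13.4 to 23.8 and PTPRC 35.9 to 68.5. CD14 was listed at 0 in the Lean libraries and had an Obese mean of 2.02 ± 2.14 (SD, n = 3). Its highest Obese library held 4.49. In DNA from whole cultures, fewer cells that carry the mark and less mark per cell cannot be told apart.

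PAX7 lies on chromosome 6 (Sscrofa11.1, chr6:77160827-77268626), a span of 107.8 kb. The 3 Obese libraries held 4.51, 7.62 and 5.90 normalized counts of 5hmC over its exons, and the 3 Lean libraries 9.20, 16.9 and 12.3. The groups did not overlap, although the highest Obese and the lowest Lean library were close. The means were 6.01 ± 1.55 and 12.8 ± 3.86 (SD, n = 3 each), a ratio of 0.469 and a log2 ratio of -1.09, which ran from -1.30 to -0.84 when each library was left out in turn. These values chose the gene and carry no test here.

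PAX3, the paralogue that acts in the embryonic muscle precursors (chr15:124093803-124193041), was lower in Obese-MSCs as well. Obese libraries 1, 2 and 3 held 6.84, 9.50 and 9.37 normalized counts, and Lean libraries 7, 8 and 9 held 11.5, 16.9 and 16.4. The groups did not overlap, and in both groups the first library was the lowest. The means were 8.57 ± 1.50 and 14.9 ± 3.01 (SD, n = 3 each), a log2 ratio of -0.80 with a range from -0.96 to -0.66 without each library in turn. PAX3 met the study's criteria. The two-sided exact permutation p was 0.1, the smallest that 3 libraries against 3 allow, and limma, fitted to log2(value + 1) over all genes in the upper 80% by mean, gave a difference of -0.73 ± 0.34 (SE) with an adjusted p of 0.722.

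MYF5 and MYF6 lie side by side on chromosome 5 (chr5:100753440-100755558 and chr5:100762918-100764771), 7.359 kb apart, and only MYF5 met the criteria between the diets (the difference between these genes was not tested). MYF5 is the earliest of the MYOD family to be switched on in the embryo. Its exons held 2.22, 2.83 and 4.61 normalized counts in Obese-MSCs against 8.95, 6.95 and 5.16 in Lean-MSCs, so that the groups did not overlap but lay near each other at the edge. The means were 3.22 ± 1.24 and 7.02 ± 1.90 (SD, n = 3 each), a log2 ratio of -1.12 with a range from -1.47 to -0.91. MYF5 met the study's criteria, with an exact permutation p of 0.1. In limma its difference was -0.94 ± 0.47 (SE), with an adjusted p of 0.757 and a 95% confidence interval from -1.92 to 0.05.

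MYF6, also called MRF4, works late, in the formed fibre. With 3.81, 3.77 and 5.79 normalized counts in Obese-MSCs against 6.67, 3.97 and 3.10 in Lean-MSCs, the groups overlapped. The log2 ratio of its means was -0.04, and the exact permutation p was 0.8. The limma interval ran from -1.01 to 1.01, wide enough to take in the limma difference of MYF5 (-0.94). The order of the Lean libraries was the same in MYF5 and MYF6 (7, then 8, then 9), and Obese library 3 was the highest Obese library in both.

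MYOD1, which can turn fibroblasts into muscle cells, and MYOG, which directs the entry into differentiation, are single short genes (chr2:41422522-41424236 and chr9:113783233-113785312). MYOD1 was near 0 in each of the 6 libraries, with 0.739, 0.944 and 1.17 normalized counts in the Obese and 0.0103, 0.995 and 0.00228 in the Lean libraries, so no fold is given. MYOG held 13.9, 12.3 and 20.9 in Obese-MSCs against 13.7, 19.9 and 18.5 in Lean-MSCs. These overlapped throughout, with a log2 ratio of -0.15, an exact permutation p of 0.8 and a limma interval from -0.82 to 0.51.

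The MEF2 genes, MADS-box factors that act with the MYOD family, did not meet the criteria. MEF2C (chr2:96122407-96296927) held 99.5, 105 and 89.6 normalized counts in Obese-MSCs against 73.7, 81.4 and 95.5 in Lean-MSCs, and only Lean library 9 reached into the Obese range. Its log2 ratio was 0.23, positive without each library in turn (0.15 to 0.34), with an exact permutation p of 0.2 and a limma interval from -0.20 to 0.67. MEF2D (chr4:93581563-93616980) held 138, 141 and 110 against 94.1, 127 and 124, a log2 ratio of 0.17 with an exact permutation p of 0.5. MEF2A (chr1:138398270-138508639) was split within the Obese group, with 10.9 normalized counts in library 1 against 30.4 and 32.6 in the others. The Lean libraries lay between these, at 29.3, 24.8 and 24.7. Its log2 ratio was -0.09 with all libraries and 0.26 without Obese library 1, and the exact permutation p was 1.

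**Figure D1:**
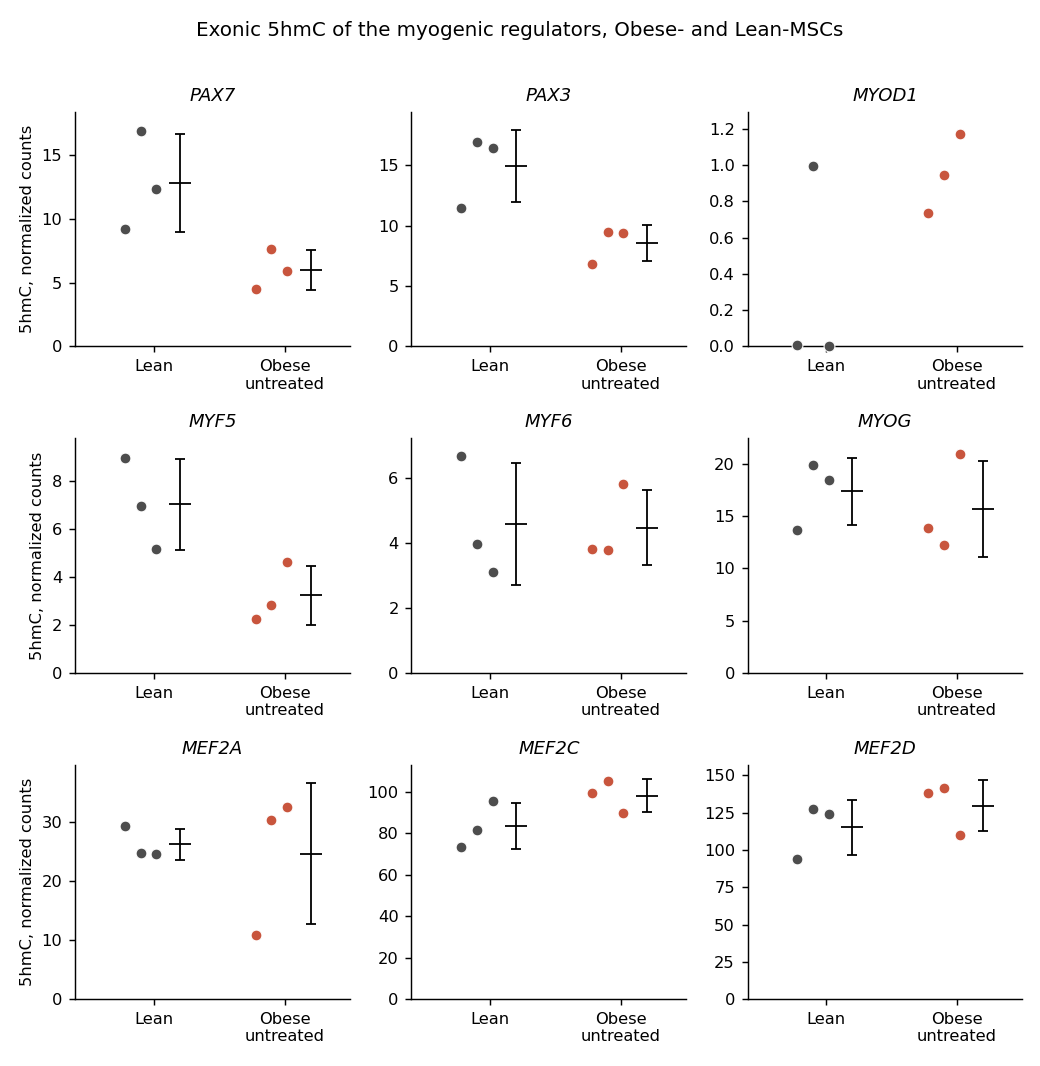
5hmC in normalized counts (y axis, a scale of its own in each panel) over the exons of the 9 genes in untreated Obese-MSCs and Lean-MSCs, with 1 point per library and, beside the points, the mean with an SD bar (n = 3), left out for MYOD1, whose means are under 3. The Obese points lie below the Lean points in PAX7, PAX3 and MYF5, and the groups overlap in the other 6 genes.

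Of the 9 genes, 3 met the criteria for low 5hmC in Obese-MSCs (PAX7, PAX3 and MYF5), where 2.43% of all 18933 genes did, and 0 of 9 met them for high 5hmC, where 2.07% did. Without PAX7, the count was 2 of 8. The same 3 genes had groups that did not overlap with Obese lower, as had 6.06% of all genes. Without PAX7 this count was 2 of 8. With Obese higher, 0 of 9 did not overlap, as had 5.7% of all genes. The median log2 ratio over the 8 genes with a mean over 3 was -0.12, against 0.01 over 16416 genes of the table. Of the 8 genes, 6 were negative and 2 positive. PAX7, chosen for its low value in Obese-MSCs, is among the 8 and among the 6 negative, so these figures are a description. In limma 8 of the genes were tested, MYOD1 being under the filter on low means, and 0 passed at an adjusted p of 0.05, as did 0% of the 15146 genes tested. Apart from PAX7, 1 of 7 (PAX3) had an unadjusted limma p of 0.05 or less, a level that 6.81% of all genes reached, and the adjusted limma p of these 7 lay between 0.722 and 1.00.

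These 3 calls rested on each Obese library. Leaving out any of Obese libraries 1, 2 or 3 left 0 of the 3 within the criteria, although the log2 ratios stayed at -0.66 or lower. Without Lean library 7 PAX7 and PAX3 were called, without Lean library 9 only MYF5, and without Lean library 8 none of the 3, while MYOD1, near 0 in every library, then met the criteria as higher in Obese. Quantile normalization kept PAX3 and MYF5 but not PAX7, and a p threshold of 0.01 kept none of the 9.

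**Figure D2:**
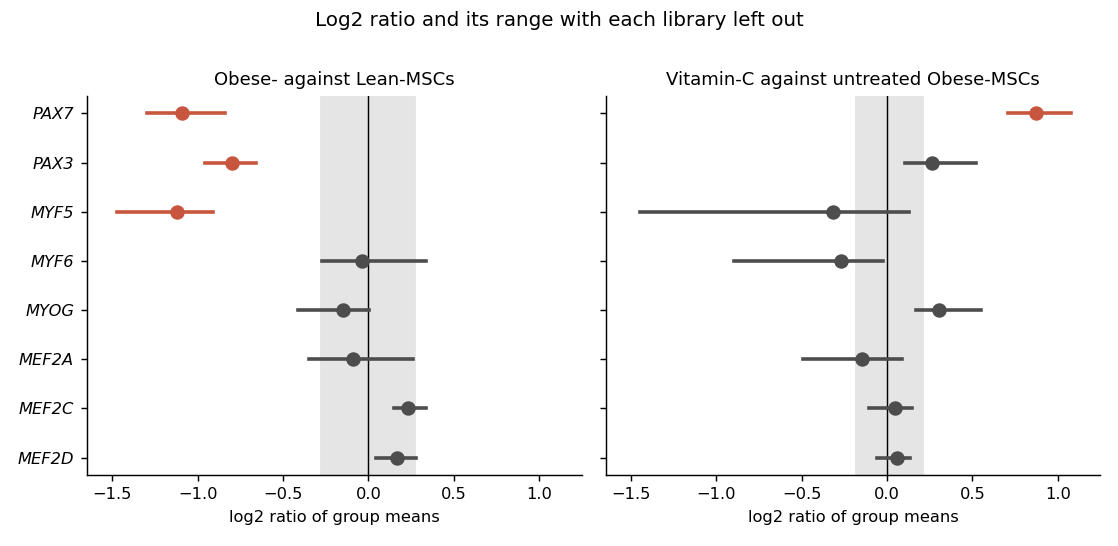
Log2 ratio of group means for the 8 genes with a group mean over 3, Obese- against Lean-MSCs on the left and vitamin-C-treated against untreated Obese-MSCs on the right, with a line over the values found when each library was left out in turn and the interquartile range of all genes shaded. Genes that met the study's criteria are in red: PAX7, PAX3 and MYF5 lie left of the shaded band in the first comparison, and PAX7 lies farthest right in the second, where PAX3 and MYOG are also right of the band and MYF5 and MYF6 left of it.

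With vitamin-C, PAX7 held 14.1, 13.0 and 9.76 normalized counts in the treated libraries and 5.10, 8.54 and 6.51 in the untreated Obese libraries. The groups did not overlap, and treated library 6 was the nearest to the untreated range. The means were 12.3 ± 2.24 and 6.72 ± 1.73 (SD, n = 3 each), a ratio of 1.83 and a log2 ratio of 0.87, between 0.71 and 1.08 without each library in turn. This contrast also chose PAX7, so it is given with no test. PAX7 was 1 of 29 genes (0.155% of the 18752 in both tables) called low in Obese-MSCs and also called high after vitamin-C, the pattern behind its choice, and both comparisons share the same untreated libraries.

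PAX3 did not meet the criteria with vitamin-C. Treated libraries 5 and 6 held 13.9 and 13.5 normalized counts, above the 7.69, 10.7 and 10.3 of the untreated libraries, but treated library 4 held 7.05, below all of them. Its log2 ratio was 0.26, with an exact permutation p of 0.6 and a limma interval from -0.60 to 1.00, which takes in a rise as large as that of PAX7. Library 4 was the highest treated library for PAX7 and the lowest for PAX3, and without it PAX3 met the criteria as higher, with a log2 ratio of 0.52, and PAX7 did not.

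MYF5 and MYF6 shared their spread among the treated cultures. MYF5 held 6.03, 1.82 and 0.814 normalized counts in treated libraries 4, 5 and 6, and 2.53, 3.23 and 5.02 in the untreated libraries. MYF6 held 7.03, 2.73 and 2.62 in the treated and 4.27, 4.31 and 6.34 in the untreated libraries. In both genes treated library 4 was the highest of the 6 and treated libraries 5 and 6 were below all untreated libraries, so the groups overlapped. The treated mean of MYF5 was 2.89 ± 2.77 against 3.59 ± 1.29 untreated (SD, n = 3 each), a fold of 1.20 with the treated mean set to 3. On the means as they stand its log2 ratio was -0.32, with an exact permutation p of 0.7, so no direction is established. The log2 ratio of MYF6 was -0.27, with an exact permutation p of 0.6. Treated library 4 set the size of both, since without it the log2 ratio was -1.45 for MYF5 and -0.89 for MYF6, and with other libraries left out that of MYF5 reached 0.13 and that of MYF6 -0.03.

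MYOG held 21.1, 19.4 and 24.2 normalized counts in the treated libraries and 15.5, 14.0 and 22.9 in the untreated libraries, where library 3 alone reached the treated range. Its log2 ratio was 0.31, with an exact permutation p of 0.3 and a limma interval from -0.35 to 0.98. Without untreated library 3 the log2 ratio was 0.55 and MYOG met the criteria as higher. MYOD1 stayed near 0, with 0.00133, 1.88 and 0.884 in the treated and 0.840, 1.08 and 1.29 in the untreated libraries.

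The treated and untreated groups overlapped in all 3 MEF2 genes. MEF2C held 136, 106 and 96.5 normalized counts with vitamin-C and 111, 119 and 98.6 without, a log2 ratio of 0.05 with a limma interval from -0.44 to 0.51. MEF2D held 137, 146 and 167 with vitamin-C and 153, 160 and 121 without, a log2 ratio of 0.06 with an interval from -0.39 to 0.51. MEF2A held 17.1, 25.9 and 31.5 with vitamin-C and 12.6, 34.2 and 35.7 without, and in both groups the first library stood low. Its log2 ratio was -0.15, and the exact permutation p of MEF2A, MEF2C and MEF2D were 0.8, 0.9 and 0.7.

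**Figure D3:**
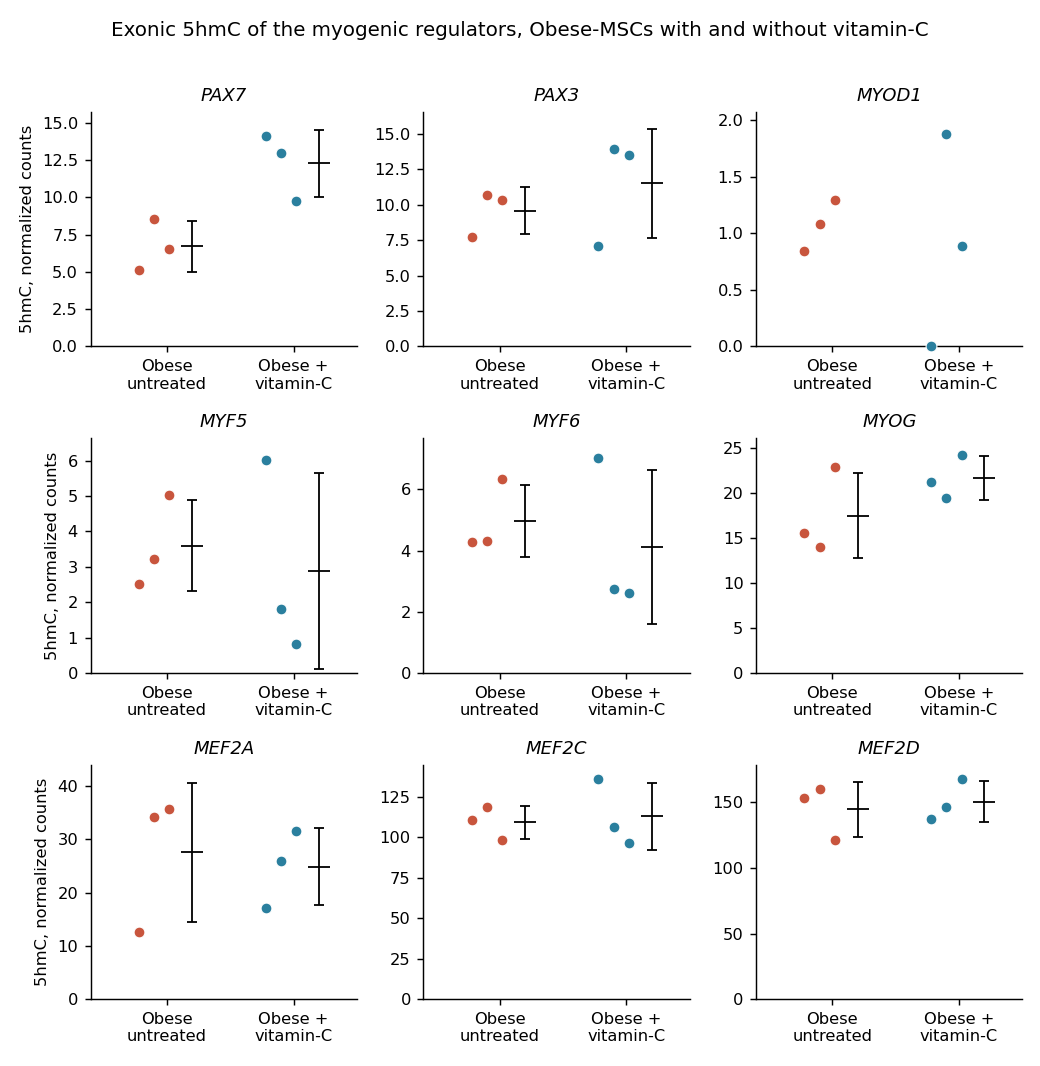
5hmC in normalized counts (y axis, a scale of its own in each panel) over the exons of the 9 genes in untreated and vitamin-C-treated Obese-MSCs, with 1 point per library and, beside the points, the mean with an SD bar (n = 3), left out for MYOD1, whose means are under 3. The treated points of PAX7 lie above all untreated points, and the groups overlap in the other 8 genes.

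Of the 9 genes, 1 (PAX7) met the criteria for high 5hmC with vitamin-C, where 1.11% of all 18992 genes did, and 0 of 9 met them for low 5hmC, where 0.806% did. Without PAX7 the counts were 0 of 8 in both directions. PAX7 was also the 1 gene of the 9 with groups that did not overlap and treated higher, as in 3.24% of all genes. With treated lower, 0 of 9 did not overlap, as in 2.67%. Without PAX7, 0 of 8 did not overlap in either direction. PAX7 was chosen for being higher with vitamin-C, so its own call and non-overlap only describe that choice. The median log2 ratio over 8 genes, PAX7 among them, was 0.05, with 5 positive and 3 negative, against 0.01 over 16741 genes. In limma, where MYOD1 and MYF5 were under the filter, 0 of the 7 genes tested passed at an adjusted p of 0.05, as did 0% of the 15194 tested. Apart from PAX7, 0 of 6 had an unadjusted p of 0.05 or less, which 0.974% of all genes tested had. That share lies below the level of 0.05 itself, so the unpaired test was strict in this comparison. Its intervals may be too wide, and a gene not called may still differ. The call of PAX7 was lost without treated library 4 or 5 and without untreated library 1 or 3, with a log2 ratio of 0.71 at its lowest.

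Set against the untreated Obese libraries of its own table, PAX7 was 2.13 times as high in Lean-MSCs and 1.83 times as high with vitamin-C. For PAX3 the same ratios were 1.74 and 1.20, and for MYF5, whose treated mean is under 3, they were 2.18 and 0.803. MYOG stood at 1.11 and 1.24, and MEF2C at 0.851 and 1.03. The tables were normalized separately, the untreated libraries are in both ratios, and treated and Lean-MSCs were not tested against each other.

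PAX7's neighbours on chromosome 6 were taken by position, a pair on each side. IGSF21, a cell surface protein gene, had an Obese mean of 3.65 ± 2.21 and a Lean mean of 8.02 ± 1.88 normalized counts (SD, n = 3 each), with groups that did not overlap and a log2 ratio of -1.13. KLHDC7A had a log2 ratio of -0.85 with overlapping groups, and on the other side TAS1R2, a taste receptor gene, had 0.02 and ALDH4A1, an enzyme gene of proline breakdown, 0.29. With vitamin-C the values were 0.62 for KLHDC7A, 0.09 for TAS1R2 and -0.18 for ALDH4A1, and IGSF21, whose treated mean was under 3, had -0.44 with that mean set to 3. None of these 4 neighbours met the criteria in either comparison.

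The genes whose 5hmC followed PAX7 most closely over libraries were sought among the 9123 genes that ranked in the upper 50% of means in each table, by the smaller of 2 Pearson correlations on log2(value + 1), each over 6 libraries, of which 3 are the same untreated cultures. KIAA1210 came first, with correlations of 0.956 in the diet table and 0.947 in the vitamin-C table. MBD6, a methyl-CpG-binding domain protein, had 0.881 and 0.869, and PTP4A2, a tyrosine phosphatase, had 0.856 and 0.877. GNL3, which encodes nucleostemin, had 0.852 and 0.878, and PMS2, a mismatch repair factor, had 0.850 and 0.877. KIAA1210 and GNL3 met the criteria for low 5hmC in Obese-MSCs, as did 2.43% of all genes. None of the 5 met them for high 5hmC with vitamin-C, where 1.11% of all genes did. The 5 were picked by likeness to PAX7 over these same libraries, so their direction follows from the choice and tests nothing. High correlations are also found by searching many genes over few libraries. PAX3, MYF5, MYF6 and MYOD1 were outside this ranking, since their means were too low for it. PAX3 had 0.969 in the diet table, above KIAA1210, but 0.225 in the vitamin-C table, and MYF5 had 0.687 and 0.00. PAX7, PAX3 and MYF5 were all lower in Obese-MSCs, so their correlations in the diet table take in that group difference. Of the regulators within the ranking, MYOG ranked 703 of the 9123, with 0.398 and 0.340, and MEF2C had -0.44 and 0.408, of opposite sign in the 2 tables.

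Around the 9 regulators, 109 genes of the myogenic pathway were listed in 5 groups by role. Between the diets, 4 of the 102 in the table (3.92%) were called high in Obese-MSCs, beside 2.07% of all genes, and 8 (7.84%) low, beside 2.43%. With vitamin-C, 2 of 103 (1.94%) were called high, beside 1.11% of all genes, and 0 low, beside 0.806%. In limma, 0 of 85 and 0 of 86 passed after adjustment, and 13 of 85 and 1 of 86 had an unadjusted p of 0.05 or less, beside 6.81% and 0.974% of all genes tested. Of the 12 calls between the diets, 5 to 8 were kept when each library was left out in turn, an alternative chosen after seeing the data, and PAX4, SIX2, EYA2 and TEK were kept each time. Of the 2 calls with vitamin-C, 0 to 1 were kept. The lists are small, and the counts of each list below are to be read against the shares of all genes. These were 2.07% high and 2.43% low between the diets, and 1.11% high and 0.806% low with vitamin-C.

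Among the other PAX genes, 6 of 7 were in the table, 0 were high and 1 was low in Obese-MSCs. That was PAX4, a factor of pancreatic beta cells (chr18:20675874-20680315), with 3.02, 6.71 and 1.33 normalized counts against 10.2, 12.9 and 11.3 in Lean-MSCs, a log2 ratio of -1.64, which became -2.40 without Obese library 2, where the Obese mean was under 3. The median log2 ratio of the 6 was -0.46 between the diets and 0.15 for vitamin-C, where 0 of 6 were called. In the vitamin-C table PAX4 held 4.45 ± 3.23 against 4.12 ± 3.00 (SD, n = 3 each).

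The upstream factors and cofactors, which hold homeobox factors such as SIX2 and the EYA and DACH genes that act beside them, gave 4 of 27 low and 0 high in Obese-MSCs. SIX2 (chr3:95460046-95463428) was at 2.46, 0.937 and 0.0469 normalized counts in Obese-MSCs against 10.1, 9.93 and 7.21 in Lean-MSCs, at least 3.03-fold lower with the Obese mean set to 3. DACH1, a corepressor that pairs with such factors, had a log2 ratio of -1.42 from Obese libraries at 6.51, 0.895 and 3.56, and it was -2.13 without Obese library 1, where the Obese mean was under 3. EYA2, their coactivator, fell by 0.80 on the log2 scale. EYA2 held 23.3, 28.5 and 20.2 against 39.6, 42.7 and 43.1, with groups that did not overlap. MEF2B, the remaining MEF2 gene, was low at 33.4 ± 2.66 against 50.6 ± 7.54 (SD, n = 3 each), a log2 ratio of -0.60, where MEF2A, MEF2C and MEF2D were not called. The median of the list was -0.12, and with vitamin-C the 1 call was SIX5, whose means were 3 or less in both groups.

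Of the bHLH partners and inhibitors of the MYOD family, 3 of 25 were high and 1 was low in Obese-MSCs. HDAC5, a deacetylase that represses MEF2 (chr12:19077910-19119463), held 43.6, 46.5 and 32.1 normalized counts against 25.9, 19.9 and 19.5, a log2 ratio of 0.91. FST, which encodes the myostatin antagonist follistatin, rose by 0.58 on the log2 scale. TWIST1, which inhibits MYOD1, was at 4.90 ± 1.36 against 2.08 ± 0.946 (SD, n = 3 each), at least 1.63-fold higher. HEYL, a Notch effector, was low with a log2 ratio of -1.04. With vitamin-C 0 of the 25 were called, and the medians were 0.14 and -0.06.

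The satellite cell surface and niche genes (22 of 24 in the table) gave 1 high and 1 low. HGF, the growth factor that activates satellite cells, held 51.2, 51.2 and 55.2 normalized counts against 32.9, 27.8 and 46.2 in Lean-MSCs, a log2 ratio of 0.56, and TEK, the angiopoietin receptor, had a log2 ratio of -0.64. Of the fusion and differentiation genes, 22 of 26 were in the diet table and 1 was low, KLHL41, a sarcomere-associated protein, with -0.61. In the vitamin-C table DMPK, the kinase gene of myotonic dystrophy (chr6:52100259-52110822), held 13.1, 15.7 and 18.9 with vitamin-C and 10.4, 9.64 and 6.70 without, a log2 ratio of 0.83, and was the 1 call among 23. The medians were -0.11 and -0.03 for the niche list and 0.17 and 0.03 for the differentiation list. The adjusted limma p of the listed genes was 0.583 or higher in the diet table and 1.00 in the other.

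**Figure D4:**
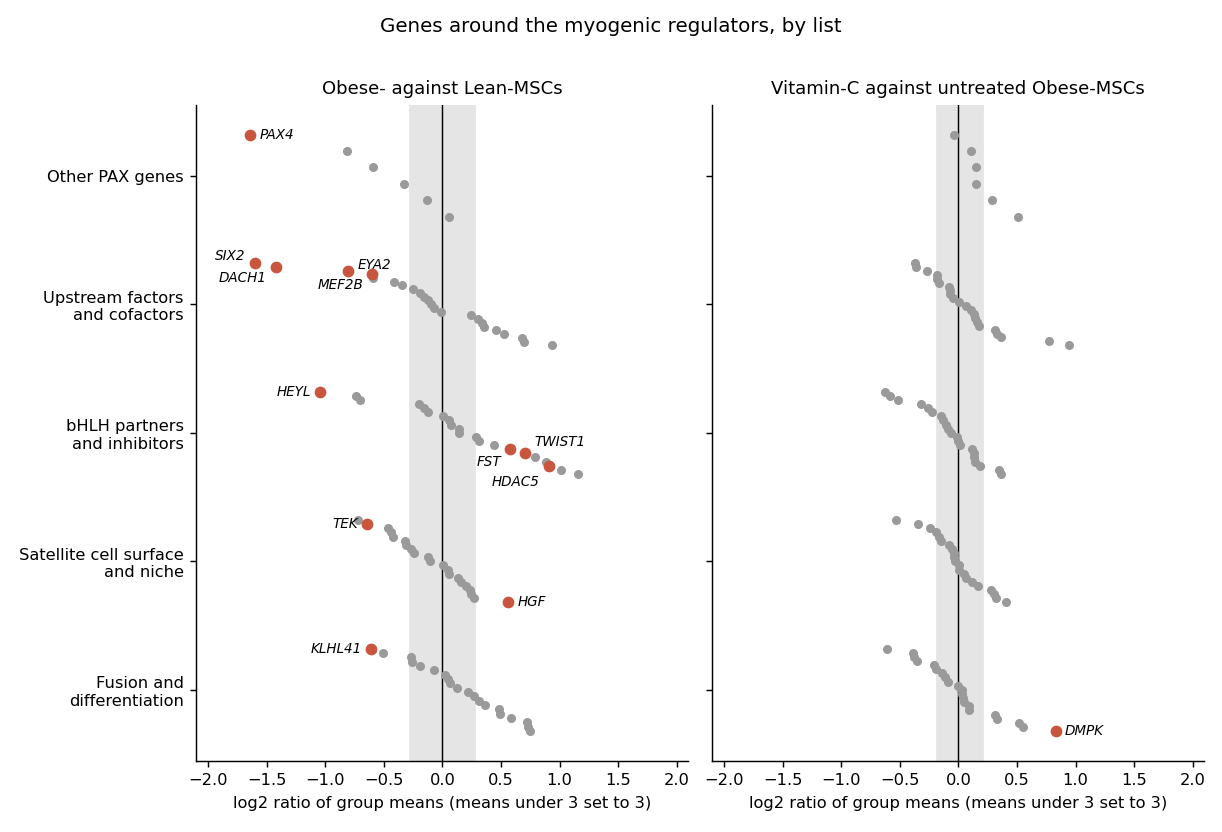
Log2 ratio of group means for the genes of the 5 lists that had a group mean over 3 in the comparison, with means under 3 set to 3, Obese- against Lean-MSCs on the left and vitamin-C-treated against untreated Obese-MSCs on the right. Each point is 1 gene, the larger named points met the study's criteria, and the interquartile range of all genes is shaded. In the diet comparison 8 named genes lie on the low side and 4 on the high side, and with vitamin-C the 1 named gene is DMPK, on the high side.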

How the data were processed

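The authors aligned hMeDIP-seq reads to susScr 11.1, removed duplicates, counted reads over exons and normalized the counts (Bowtie2 2.3.3.1, Picard 1.67, HTSeq 0.9.1 and edgeR 3.28.1 in the submitters' processing notes, used by the authors). The 2 deposited tables hold this signal as fractional normalized counts, 6 libraries each, with the untreated Obese libraries in both and scaled separately, so tests stayed within a table. All value columns were used (0 left out). In the vitamin-C table, 645 residues of rounding near 0 became 0, and 25 names had become dates. Whole reads could not be recovered for every library, so no count test was run and depth in reads is unknown.

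The 9 members, the 5 lists and the tests were chosen with earlier results of these data known. The text names the 9 members, up to 4 list genes per list and comparison that met the study's criteria with a mean over 3 (largest log2 ratio first), the 5 genes most correlated with PAX7, and its neighbours, added after values had been seen. Log2 ratios are of group means without a pseudocount. Members other than PAX7 were tested by exact permutation (two-sided, 20 arrangements) and, where tested, by limma 3.58.1 in R 4.3.3 on log2(value + 1) with a trend, Benjamini-Hochberg adjustment and a threshold of 0.05. Python 3.11.15, numpy 2.4.6, pandas 2.3.3, scipy 1.17.1 and matplotlib 3.10.9 did the rest. The procedure was run on simulated data in which only genes in the upper 50% by mean were changed. That run does not speak for genes with lower means. Alternatives changed the p threshold (0.01), test scale, pseudocount (0.5 or 4), filter, scaling and variance model, and left out each library in turn. Positions are RefSeq's for Sscrofa11.1, and no sequence is shown.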

Additional observations from a re-analysis of the deposited data

How the results depend on the processing

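With a p threshold of 0.01 in place of 0.05, the genes that met the study's criteria went from 852 to 216 between the diets and from 364 to 66 with vitamin-C, and the myogenic regulators that met them went from 3 to 0 and from 1 to 0. Keeping only genes in the upper 80% by mean left 231 genes with vitamin-C. Fewer genes were then tested, but the share called also fell, from 1.92% to 1.52%. Between the diets that share was 4.50% before and 4.47% after. With each library left out in turn, which also leaves fewer samples, the regulators that met the criteria numbered 0 to 2 between the diets and 0 to 1 with vitamin-C, and the genes that passed limma between the diets numbered 0 to 1. Over the alternatives the adjusted limma p of PAX3 ran from 0.659 to 0.961 between the diets and that of MYF5 from 0.689 to 0.974. The log2 ratios of the 8 regulators moved by less than the spread between libraries in 72 of 72 values per comparison. This is a lenient measure that shows little about stability. It took in a move of MYF5 with vitamin-C from -0.32 to -1.45 without treated library 4. Signs changed in 5 of the 72 values between the diets (MYF6, MYOG, MEF2A) and in 9 with vitamin-C (MYF5, MEF2A, MEF2C, MEF2D), each time with 1 library left out. No paired analysis was possible because the groups share no replicate numbers and the labels do not match treated with untreated libraries. Low values limit MYOD1, MYF5 and MYF6 most, and a shift of 5hmC in all genes would not show in values scaled to similar totals.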
